A study of Mus musculus with 15 samples.

Results

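The comparison described here sets erythroid progenitors of Rpl5 mutant mouse embryos against those of wildtype embryos, in the first of 2 groups of mice. Its members were all the libraries that the labels place in group 1, with no selection on measured values: 6 of the 15 libraries of the series, 3 wildtype and 3 mutant. All came from fetal liver at stage E12.5, from mice of strain 129S6/SvEvTac, and RNA was sequenced as 151-base read pairs from polyadenylated RNA. The labels give the genotypes of group 1 only as WT and M and name no allele. For the second group of mice, which was sequenced as total RNA, the deposited sample list names the mutant allele Rpl5plusSkax23Jus. No label says how the progenitors were purified, or that the numbered replicates came from separate litters, so p-values here measure the spread between these 6 samples only.

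The product of Rpl5 enters the large ribosomal subunit together with Rpl11 and a small ribosomal RNA. When ribosome assembly is disturbed, the same complex can bind Mdm2, the ubiquitin ligase that keeps p53 low, and p53 then switches on genes of cell cycle arrest, apoptosis and repair. Heterozygous loss of RPL5 in people is one of the causes of Diamond Blackfan anemia, in which red cell precursors are scarce. The fetal liver is the main site of red cell formation in the mouse at this stage: progenitors mature there into erythroblasts, fill with globin and heme, rebuild their membrane and clear their organelles. The series' title asks about lipid metabolism in this disease, and the lipid pathways are therefore described one by one.

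Each library held between 48510828 and 58513669 assigned read pairs, and 14048 of the 55487 annotated genes passed the filter on low counts. Expression is given as CPM, the count scaled to library size with TMM factors. The erythroid factors Klf1 and Gata1 were present in all 6, between 378 and 588 CPM and between 206 and 239 CPM. The first principal component held 37.8% of the variance and the second 25.04%. The genotypes overlapped along the first, at −63.5, −6.36 and 1.7 for wildtype replicates 1 to 3 and −17.4, 48.2 and 37.4 for the mutants, with replicate 1 lowest in each genotype and wildtype replicate 1 apart from the rest. Globin transcripts took 0.374%, 0.442% and 0.689% of the counts of wildtype replicates 1 to 3 and 0.146%, 0.207% and 0.193% of those of the mutants. Embryonic globins differed widely among libraries of the same genotype. Hbb-y was at 71.5, 315 and 1264 CPM in the wildtype and 78.9, 240.2 and 192 in the mutant libraries, and Hba-x was at 23.0, 83.7 and 403 against 37.6, 94.6 and 74.2. Both pairs of groups overlapped, with wildtype replicate 3 far above the others. The libraries also differed in sex-linked transcripts: mutant replicate 1 had 1364 CPM of Xist and none of the Y-linked Ddx3y, while wildtype replicate 3 and mutant replicates 2 and 3 had at most 3.18 CPM of Xist. Wildtype replicates 1 and 2 held both, with 525 and 865 CPM of Xist and 49.3 and 29.9 CPM of Ddx3y, and what part such differences have in the results was not tested. The plot of library summaries shows these shares.

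**Figure D1:**
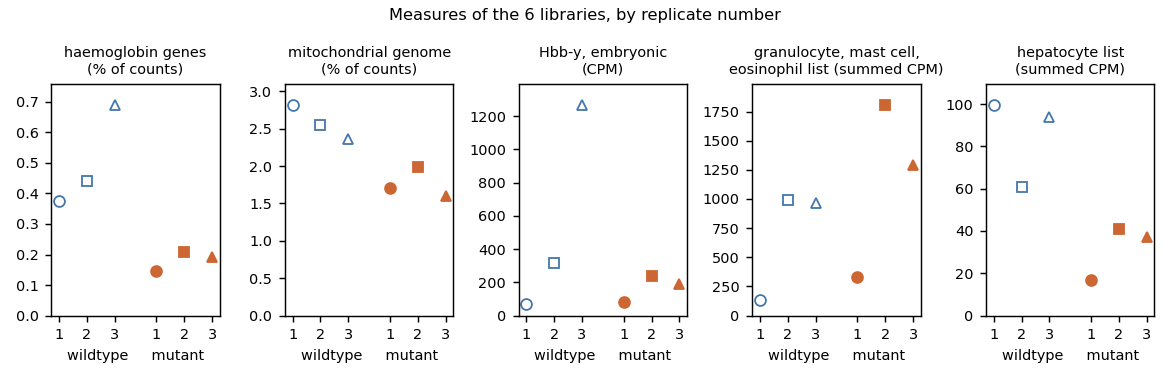
Shares of counts and summed marker levels in each of the 6 libraries, one point per library, wildtype and mutant side by side. Globin and mitochondrial shares were lower in every mutant than in every wildtype library, while the summed granulocyte, mast cell and eosinophil genes varied several-fold within each genotype.

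Rpl5 itself, at chr5:107900502-107909005 of GRCm38, was measured at 656, 668 and 744 CPM in wildtype replicates 1 to 3 and at 520.5, 561 and 570.4 CPM in the mutants. Every mutant lay below every wildtype library. The means were 689.6 ± 47.9 and 551 ± 26.6 CPM (SD, n = 3 each), a 1.25-fold lower level (log2 fold change −0.32, SE 0.07, adjusted p = 0.00971, edgeR quasi-likelihood test), called in each of the 6 fits that left out 1 library.

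Of the 14048 genes, 1766 passed the test at an adjusted p of 0.05, which is 12.6% of those tested: 814 were higher in the mutants (5.79%) and 952 lower (6.78%). Most of the differences were small. The log2 fold change was under 0.5 in size for 1024 of the 1766 (58.0%), and at least 1 in size for 302 (2.15% of all tested), 188 higher and 114 lower. In bulk libraries such as these, fewer cells of a type and less RNA per cell cannot be told apart. The count was 2863 of 14048 with the replicate number as a block, which is the background for the block counts of the lists below. It was 1051, 836 and 1168 when wildtype replicate 1, 2 or 3 was left out and 753 when mutant replicate 3 was left out. A core of 643 genes, 306 higher and 337 lower, was called whichever library was left out, and 642 of them also by both DESeq2 and voom. Upper quartile scaling moved the split of calls to 1006 higher and 802 lower.

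The 10 largest increases among the genes called in every such fit were led by Eda2r, a receptor of the tumour necrosis factor family, and Cdkn1a, the p21 inhibitor of cyclin-dependent kinases. Eda2r was at 0.251, 0.231 and 0.514 CPM in the wildtype and 8.2, 7.9 and 5.99 CPM in the mutant libraries (21.6-fold, log2 fold change 4.43, SE 0.33, adjusted p = 1.40e-05). Cdkn1a rose from 1.84, 1.6 and 3.05 CPM to 26.6, 34.1 and 30.8 CPM, which is 13.9-fold (3.80, SE 0.20, adjusted p = 2.51e-06). In both genes the lowest mutant stood several-fold above the highest wildtype library. Plk2, a polo-like kinase that p53 can induce, was at 0.483, 0.596 and 0.48 CPM against 3.02, 4.68 and 5.65 CPM (3.10, SE 0.36, adjusted p = 4.37e-04). Zmat3, an RNA-binding p53 target, had the smallest standard error of the 10, at 9.16, 8.44 and 8.62 CPM against 50.4, 57.0 and 49.4 CPM (2.58, SE 0.10, adjusted p = 1.25e-07). The other 6 were Gask1b (3.495), the proprotein convertase Pcsk6 (2.48), the kinase Stk39 (2.38), the protocadherin Pcdh7 (2.37), the adhesion receptor Adgrl2 (2.23) and the small GTPase Rnd2 (2.16). These 6 were scarce in wildtype libraries, with means from 0.369 to 2.21 CPM.

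Several of the 10 largest decreases were in genes of maturing red cells. Fn3k, the kinase that removes sugar adducts from proteins such as haemoglobin, was at 4.23, 3.96 and 5.76 CPM in the wildtype libraries and at 0.0608, 0.746 and 0.277 CPM in the mutants (log2 fold change −3.69). Ypel4 (−2.74), a gene of late erythroblasts, was at 6.65, 8.3 and 11.9 CPM against 0.891, 2.00 and 1.17 CPM. Neither pair of groups overlapped. The actin-binding adhesion protein Tns1 fell from 41.8, 48.5 and 35.9 CPM to 9.46, 9.09 and 7.21 CPM (−2.29). The gap junction protein Gjb2, which also stands in the hepatocyte list below, fell from 9.55, 9.13 and 10.6 CPM to 2.19, 2.38 and 1.82 CPM (−2.20). Btnl10 (−2.16) and the lipid transfer protein Stard10 (−1.87) also fell. The adult globins Hba-a2 and Hbb-bt, the stearoyl-CoA desaturase Scd1 and Alas2, the erythroid enzyme that starts heme synthesis, completed the 10 and are described with their pathways.

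**Figure D2:**
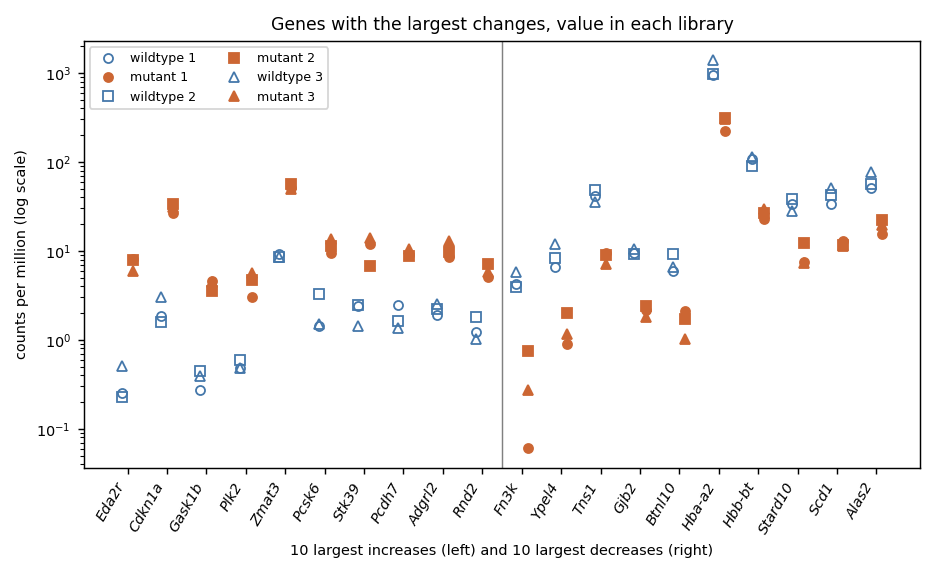
CPM on a log scale in each of the 6 libraries for the 10 largest increases and 10 largest decreases, one point per library, wildtype and mutant in different colours. In each of the 20 genes the 3 mutant points lie wholly on one side of the 3 wildtype points, as the choice of these genes required.

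The gene lists that follow were chosen with earlier results of these data known. Their shares of called genes beside that of all genes are therefore descriptions and no test. Several targets of p53 rose. Among 18 tested targets of the cell cycle and signalling group 9 were higher and 2 lower (61.1% called, beside 12.6% of all genes), with a median log2 fold change of 0.41 beside 0.01 over all genes, and 8 of the 11 were called in every fit that left out 1 library. Among 15 tested targets of the cell death group 7 were higher and none lower (46.7% called, median 0.56), 11 with the block. Ccng1, a cyclin that recruits a phosphatase to Mdm2, was at 119, 108 and 102 CPM in the wildtype and 317, 340.4 and 339 CPM in the mutant libraries (log2 fold change 1.60). Phlda3, an inhibitor of Akt, was at 22.1, 24.8 and 22.6 CPM against 58.5, 64.8 and 55.9 CPM (1.37). In both genes every mutant library was far above every wildtype library. Btg2, an antiproliferative p53 target, went the other way and had the lowest value of the list. It fell from 13.2, 19.3 and 22.8 CPM to 7.23, 10.2 and 9.86 CPM (−1.02, adjusted p = 0.0153), and was not called without wildtype replicate 2 (0.0612) or mutant replicate 3 (0.0616).

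Next to Eda2r, the largest change of the cell death list, smaller changes were called in other apoptosis genes. Bax, which permeabilises the mitochondrial outer membrane, was at 90.9, 90.1 and 91.1 CPM against 129.6, 132 and 133 CPM (log2 fold change 0.53, SE 0.06, adjusted p = 2.31e-04). The nuclease Aen (0.56) and Ei24 (0.41) were also called in every fit that left out 1 library. Bbc3, the BH3-only protein Puma, rose from 5.1, 4.4 and 6.95 CPM to 9.64, 16.0 and 10.9 CPM (1.14, adjusted p = 0.0101), and its adjusted p was 0.0512 without wildtype replicate 2. Trp53inp1, a p53 cofactor that itself is a target, rose from 1.1, 1.73 and 2.07 CPM to 5.47, 7.8 and 5.81 CPM (1.95). Of 18 targets in metabolism and repair 3 were higher and 2 lower (27.8% called, beside 12.6% of all genes), with Ada, adenosine deaminase, at 0.76 and Pcna, the replication clamp, at −0.36. That count of 5 became 3 without wildtype replicate 1, wildtype replicate 3 or mutant replicate 3, and 2 without wildtype replicate 2.

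Of 16 tested genes of p53 and its regulators 3 were called, which is 18.8% beside 12.6% of all genes. They were Trp53inp1, the p53-binding repair protein Trp53bp1 (0.35) and Rpl5. Mdm2, which is both the ligase of p53 and one of its targets, was at 66.7, 75.2 and 69.6 CPM in the wildtype libraries and 77.5, 79.3 and 75.4 CPM in the mutants (0.13, adjusted p = 0.23). Trp53, which encodes p53, had the same log2 fold change, 0.13 (adjusted p = 0.164). For Mdm2 the lowest mutant value was only just above the highest wildtype value.

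Promoters were read for a full p53 site by name, meaning 2 copies of its decamer with up to 13 bases between them, on both strands of windows from 250 bases before to 50 after each start, as RefSeq gives them for GRCm38.p6. The search covered 9981 of the 14048 tested genes, or 71.1%, so a missing match is common and says nothing. The site stood in 6 of the 9981 genes (0.0601%), as in 24 of all 32851 windows (0.0731%), and in 4 of 644 genes called higher (0.621%) and 0 of 753 called lower. The 4 called genes are shown because they hold the letters of the site and were higher in the mutants. They were Cdkn1a, the polarity protein Pard3 (log2 fold change 1.20, adjusted p = 0.017), the membrane protein Itm2a (0.89) and the co-chaperone Dnajc7 (0.43). Pard3 was not called without wildtype replicate 2 (adjusted p = 0.0874), wildtype replicate 3 (0.0683) or mutant replicate 3 (0.0583). The other 2 holders, Ifitm2 (0.36, adjusted p = 0.347) and Sptbn4 (0.29, adjusted p = 0.86), were not called. The match is a description of letters and no measure of binding. Each line gives the 250 bases before the start, 5′ to 3′ on the gene's strand, with the site in capitals. The windows are chr17:29090729-29090978 on the plus strand for Cdkn1a (32-base site ending 41 bases before the start), chr11:100613353-100613602 on the minus strand for Dnajc7 (29 bases, 30 before), chr8:127299362-127299611 on the plus strand for Pard3 (31 bases, 109 before) and chrX:107403361-107403610 on the minus strand for Itm2a (32 bases, 170 before). Cdkn1a, Dnajc7 and Pard3 have 2 start windows each, of which the one shown holds the site.
Cdkn1a: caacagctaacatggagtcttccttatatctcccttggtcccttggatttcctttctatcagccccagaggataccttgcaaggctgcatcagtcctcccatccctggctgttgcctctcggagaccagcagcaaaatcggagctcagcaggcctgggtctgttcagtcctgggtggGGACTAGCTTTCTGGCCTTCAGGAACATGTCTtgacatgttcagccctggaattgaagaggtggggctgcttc
Dnajc7: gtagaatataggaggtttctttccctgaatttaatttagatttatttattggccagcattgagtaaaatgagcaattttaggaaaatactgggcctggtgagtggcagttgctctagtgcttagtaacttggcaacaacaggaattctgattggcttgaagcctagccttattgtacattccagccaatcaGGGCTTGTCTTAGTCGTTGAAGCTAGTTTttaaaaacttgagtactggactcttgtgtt
Pard3: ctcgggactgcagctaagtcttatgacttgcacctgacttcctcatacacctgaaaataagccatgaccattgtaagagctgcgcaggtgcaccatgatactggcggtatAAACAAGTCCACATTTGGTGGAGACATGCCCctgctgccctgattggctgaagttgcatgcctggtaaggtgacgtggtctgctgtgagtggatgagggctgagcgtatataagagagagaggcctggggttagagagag
Itm2a: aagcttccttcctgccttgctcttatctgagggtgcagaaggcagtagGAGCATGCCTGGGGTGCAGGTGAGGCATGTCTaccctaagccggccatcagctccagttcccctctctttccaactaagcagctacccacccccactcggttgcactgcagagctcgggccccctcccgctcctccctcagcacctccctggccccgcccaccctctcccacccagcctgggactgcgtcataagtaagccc

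Shorter motifs of erythroid and cell cycle factors stood in similar shares of higher, lower and all tested genes. The GATA letters AGATAA stood in 8.13% of the tested genes, 7.45% of those called higher and 9.16% of those called lower. For the CACCC letters CCACACCC, bound by Klf1, the shares were 4.58%, 4.97% and 4.65%, and for the E2F letters TTCCCGCC 4.93%, 4.04% and 5.44%. The CCAAT box CCAAT stood in 43.7%, 42.9% and 45.9%. Both strands were searched, no set of letters contains another, and none of these shares was tested.

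Most genes of heme synthesis fell. Of 15 tested genes of heme synthesis 10 were lower and none higher, all 10 in every fit that left out 1 library (66.7% called, beside 12.6% of all genes), with a median log2 fold change of −0.37. Enzymes are given in pathway order. Alas2, which makes aminolevulinic acid, was at 50.5, 56.3 and 78.0 CPM in the wildtype and 15.3, 22.1 and 19.4 CPM in the mutant libraries (3.26-fold lower, −1.70, SE 0.21, adjusted p = 0.00424). Alad, the next enzyme, fell less, by 0.47 on the log2 scale. Uros, the uroporphyrinogen synthase, fell from 61.8, 65.7 and 66.0 CPM to 30.3, 38.7 and 30.3 CPM (−0.96), and Urod by 0.37 on the log2 scale. Cpox was not called (−0.17, adjusted p = 0.153), whereas Ppox (−0.97) and Fech, which inserts the iron (−0.53), were. The mitochondrial carriers and partners of the pathway fell too, with Abcb10 at −0.72, Slc25a38 at −0.45 and Tmem14c at −0.29. Alas1, the enzyme of other tissues, differed in sign, at 0.41 with an adjusted p of 0.456 (0.00187 with the replicate block).

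**Figure D3:**
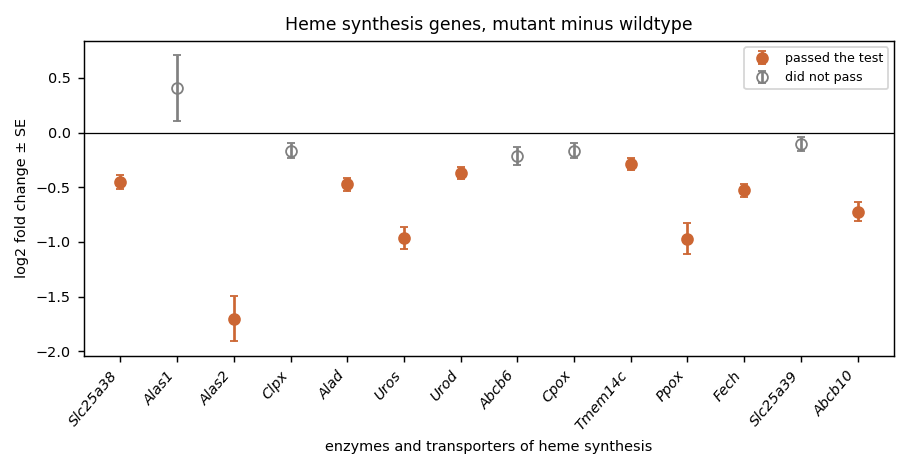
Log2 fold change of mutant over wildtype with its standard error for 14 heme synthesis genes in pathway order, filled points for those that passed the test. The 9 filled points are below 0, Alas2 lowest at −1.70, and Alas1 is the only point above 0.

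Adult globins fell as well. Of 8 tested globin genes 5 were lower (62.5%, beside 12.6% of all genes, median −1.47). Hbb-bs, an adult beta globin, was at 1546, 1711 and 1820.3 CPM in the wildtype and 710.0, 793 and 841 CPM in the mutant libraries (−1.12, adjusted p = 1.12e-05). Hba-a2 was at 957, 981 and 1393 CPM against 223, 309 and 304 CPM (−1.99), and Hbb-bt at 107, 90.8 and 112 CPM against 22.9, 26.4 and 29.8 CPM (−1.97). The groups were well apart in these 3 genes. Hba-a1 (−1.64, adjusted p = 0.0213) was lost without wildtype replicate 2 or any 1 mutant library, at adjusted p between 0.0575 and 0.0749, and Hbq1b (−1.15) was lost in all 6 such fits, at 0.0665 to 0.17. The list held 3 calls without wildtype replicate 2 or any 1 mutant library and 4 without wildtype replicate 1 or 3. Hba-a1 and Hba-a2 are near-identical copies, as are Hbb-bs and Hbb-bt, and reads can be divided between them by estimation, so their separate values are uncertain.

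Some genes that use or move heme and iron fell. Of 13 genes of heme export, sensing and breakdown 5 were lower and none higher (38.5% called, beside 12.6% of all genes), while 7 of the 13 had values above 0 and the median was 0.01. The count of 5 was 3 without wildtype replicate 2 or mutant replicate 3. Blvrb, a biliverdin reductase abundant in red cells, was at 309, 311 and 315 CPM against 204, 207 and 204 CPM (−0.61). The heme-binding protein Hebp1 (−0.48) and the heme transporter Slc48a1 (−0.32) also fell. Of 19 iron genes 8 were lower and none higher (42.1% called), but only Tfr2, the second transferrin receptor (183, 173 and 184 CPM against 135, 145 and 132 CPM, −0.39), was called in every fit. That count of 8 became 3 and 2 without wildtype replicates 1 and 2, 5 without mutant replicate 2 and 1 without mutant replicate 3. Slc25a37, mitoferrin of erythroid mitochondria, was at 285, 358 and 464 CPM against 166, 174 and 152 CPM (−1.17, adjusted p = 0.0169, or 0.0642 with the replicate block). It was not called without wildtype replicate 2 or any 1 mutant library, at adjusted p between 0.056 and 0.0705.

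The membrane of the red cell rests on a skeleton of spectrin, actin and adaptors. Of 15 tested skeleton genes 8 were lower and 2 higher (66.7% called, beside 12.6% of all genes), 9 of the 10 in every fit that left out 1 library. Epb42, which ties the anion exchanger to ankyrin, was at 80.9, 84.6 and 98.4 CPM against 43.6, 49.5 and 38.7 CPM (−1.002), and the adducins Add2 (−0.51) and Add1 (−0.44) fell. Tmod1 (−0.81), Dmtn (−0.54), Sptb (−0.54) and Epb41 (−0.34) fell too. The 2 increases were in adducin Add3 (0.41) and tropomyosin Tpm3 (0.33). The anion exchanger Slc4a1, band 3, had the largest value, from 284, 354 and 451 CPM to 64.4, 109 and 84.8 CPM (−2.07, adjusted p = 0.0173), but adjusted p was 0.069 without wildtype replicate 2 and 0.0806 without mutant replicate 3.

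Of 28 tested surface proteins, channels and enzymes of red cells 17 were lower and 2 higher (67.9% called, beside 12.6% of all genes), 14 of them in every fit that left out 1 library. Aqp1, the water channel that carries the Colton blood group, was at 129, 132 and 144 CPM in the wildtype and 49.3, 48.2 and 43.6 CPM in the mutant libraries (−1.52, adjusted p = 7.34e-07). The tetraspanin Tspan33 fell from 195, 198 and 206 CPM to 109.8, 101 and 95.0 CPM (−0.97). The Rhesus protein Rhd was at 123, 135 and 131 CPM against 85.3, 83.3 and 71.6 CPM (−0.70). In each of these 3 genes the mutant libraries were well below the wildtype ones. The carbonic anhydrase Car1 went the other way (0.79). The genes of organelle clearance and enucleation held 7 lower and no higher calls among 25 (28%), or 4 without wildtype replicate 2 or mutant replicate 3.

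Some genes fell in the list of erythroid transcription factors, which also holds the RING protein Trim10. Of 24 tested 8 were lower and none higher (33.3% called, beside 12.6% of all genes), and 4 were called without wildtype replicate 2 or mutant replicate 3. E2f2, the E2F member of terminal erythroid cycles, was at 72.6, 82.5 and 71.3 CPM against 37.4, 41.7 and 41.7 CPM (−0.91). Trim10, a RING protein of terminal erythroid differentiation, fell from 73.3, 90.4 and 94.5 CPM to 42.6, 45.8 and 36.7 CPM (−1.05). Klf1, the activator of adult beta globin, fell from 569.8, 588 and 507 CPM to 391, 396 and 378 CPM (−0.51). These 3 were called in every fit that left out 1 library. Gata1, the lineage's leading factor, was not called, at 208, 213 and 206 CPM against 239, 214 and 237 CPM (0.14, adjusted p = 0.168). Gata2, its predecessor in early progenitors, was at 1.57, 6.06 and 5.55 CPM against 4.8, 16.9 and 17.0 CPM (1.55, adjusted p = 0.258), groups that overlapped, with replicate 1 low in both genotypes. With the replicate block its adjusted p was 2.44e-07.

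**Figure D4:**
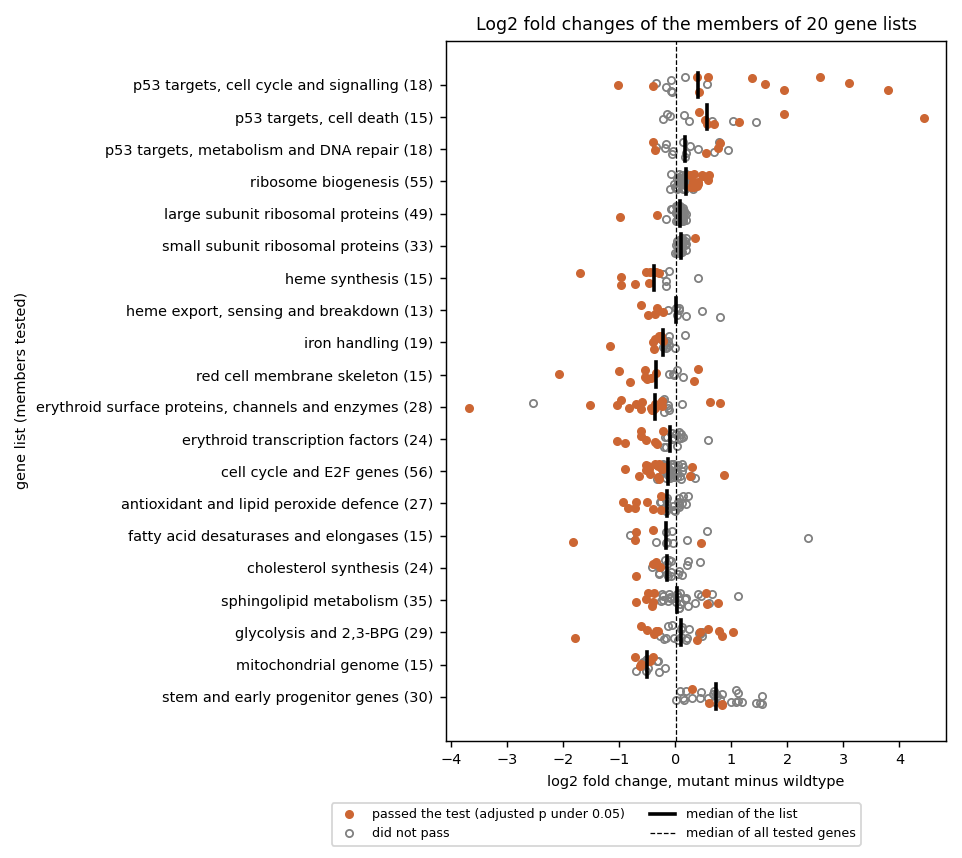
Log2 fold change of every tested member of p53, ribosome, erythroid, lipid and other lists, for 20 lists, one row of points per list, with the number tested in brackets, filled where the gene passed the test, with the median of each list as a bar. Heme synthesis and red cell membrane genes lie mostly below 0, and p53 targets and ribosome biogenesis genes mostly above it.

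Some cell division genes fell. Of 56 tested cell cycle and E2F genes 16 were lower and 3 higher (33.9% called, beside 12.6% of all genes), with a median of −0.12, and the count of 19 became 10 without wildtype replicate 1, 12 without wildtype replicate 2 and 11 without mutant replicate 3. Ccne1, the cyclin of entry into S phase, was at 269, 261 and 224 CPM against 175, 145 and 159 CPM (−0.66). The repressor E2f8 (−0.53), E2f1 (−0.52), the pocket protein Rbl1 (−0.45) and the helicase subunit Mcm7 (−0.35) fell too. Ccnd2, a D-type cyclin, rose from 66.8, 67.9 and 66.2 CPM to 118, 114 and 132 CPM (0.86). None of 25 tested replication-dependent histone genes was called by edgeR with all libraries or by voom, 2 having an unadjusted p under 0.05. DESeq2 called 1, as did edgeR without mutant replicate 2. Reads of these genes, whose transcripts mostly lack a poly(A) tail, depend on the polyadenylated selection.

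Calls in the lipid lists fell on a minority of the members of each. Of 15 tested desaturases and elongases 4 were lower and 1 higher, all 5 in every fit that left out 1 library (33.3% called, beside 12.6% of all genes). Scd1, which makes oleic acid from stearic acid, was at 33.9, 42.9 and 51.4 CPM in the wildtype and 12.96, 11.6 and 11.4 CPM in the mutant libraries (3.56-fold lower, −1.83, SE 0.15, adjusted p = 8.12e-05). Its far more abundant paralog Scd2 fell from 829, 886 and 894 CPM to 479, 566 and 532 CPM (−0.73). The desaturases of polyunsaturated fatty acids fell alongside, Fads2 from 145, 155 and 166 CPM to 89.2, 100.2 and 97.7 CPM (−0.70) and Fads1 by 0.40 on the log2 scale. These 4 called genes had mutant values below every wildtype value, as 7 of the 15 did, while 3 of the 15 had mutant values above every wildtype value. Over all tested genes the shares without overlap were 16.6% lower and 15% higher (2104 genes). Hsd17b12, a reductase of fatty acid elongation, rose (0.45).

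Of 13 tested genes of fatty acid synthesis 2 were lower, a share of 15.4% that is near the 12.6% of all genes, and leaving out mutant replicate 2 gave 4 calls. The count was 5 with the replicate block, DESeq2, upper quartile factors or a mean CPM of at least 5. Srebf1, the transcription factor that drives fatty acid synthesis and desaturation, was at 199, 210.0 and 205 CPM against 113, 127 and 119.9 CPM (−0.77, adjusted p = 3.45e-05). Slc25a1, which exports the citrate that feeds synthesis, fell by 0.45 on the log2 scale. Of 24 genes of cholesterol synthesis 4 were lower and none higher, also a share near that of all genes (16.7%). They were Insig1, a sterol sensor and the only one called in every fit (28.2, 33.1 and 28.9 CPM against 16.0, 20.6 and 18.8 CPM, −0.70), and the enzymes Fdps (−0.40), Pmvk (−0.35) and Sqle (−0.27). Fdps was lost without wildtype replicate 2 or 3 (adjusted p of 0.0684 and 0.0546), Pmvk also without mutant replicate 3 (0.1 at most) and Sqle in all 6 such fits (0.0563 to 0.148). The block gave 9 calls, and the count became 1 without wildtype replicate 2 or 3 and 2 without mutant replicate 3. In sterol uptake and efflux 4 of 20 fell (20% beside 12.6%), among them the lipoprotein receptor Scarb1 (−0.39), the ubiquitin ligase Mylip (−0.68) and the liver X receptor Nr1h2 (−0.29). Without wildtype replicate 2 that count was 2, Nr1h2 being among those lost (adjusted p = 0.0612). Nr1h2 was also lost without wildtype replicate 3 (0.0508) or mutant replicate 3 (0.0592).

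Fatty acid activation and oxidation moved both ways. Of 30 tested genes 4 were higher and 6 lower (33.3% called, beside 12.6% of all genes), with a median of 0.02. The increases were in mitochondrial oxidation: the carnitine transferase Cpt1a (0.60), Hadh (0.37), the electron carrier Etfb (0.33) and Hadha (0.29). The decreases were mainly acyl-CoA synthetases, which activate fatty acids, with Acsl6 (13.1, 13.8 and 11.1 CPM against 7.7, 6.55 and 4.8 CPM, −0.996), Acsl3 (−0.76), Acsl1 (−0.34) and Acsl4 (−0.26), next to the dehydrogenase Acadvl (−0.27). Acot1, a thioesterase, was at 0.29, 0.288 and 0.445 CPM in the wildtype and at 0 in all 3 mutant libraries, at least 17.0-fold lower against a floor of 3 counts over the group (0.0200 CPM), and its call was lost in all 6 fits that left out 1 library (adjusted p of 0.0548 to 0.0938). So was that of Acsl4 (0.0706 to 0.147), while Acadvl kept its call only without mutant replicate 2 (otherwise 0.0851 to 0.133). Etfb (0.0569) and Hadha (0.0639) were lost without mutant replicate 3, and Acsl1 without wildtype replicate 2 (0.0563) or 3 (0.0682). The count of 10 became 6 without wildtype replicate 2 or 3 and 5 without mutant replicate 3.

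Membrane lipid genes moved in both directions. In glycerolipid and phospholipid metabolism 3 of 40 tested genes were higher and 7 lower (25% called, beside 12.6% of all genes). The monoglyceride lipase Mgll had the largest decrease, from 19.6, 24.6 and 18.4 CPM to 12.3, 9.63 and 8.5 CPM (−1.04), followed by the choline phosphotransferase Chpt1 (−0.78), the acyltransferase Lpcat1 (−0.56), Pcyt2 (−0.37), Ptdss2 (−0.32), Pgs1 (−0.31) and Pcyt1a (−0.25). The acyltransferases Lpcat4 (0.80), Agpat3 (0.67) and Agpat2 (0.54) rose. Mgll, Lpcat1, Lpcat4 and Agpat3 were called whichever library was left out. Without mutant replicate 3 the others were lost, at adjusted p from 0.0549 for Ptdss2 to 0.206 for Chpt1. Chpt1 was lost in every such fit (0.0502 at the lowest), Pcyt1a in all but that without mutant replicate 1, Pcyt2 and Pgs1 without wildtype replicate 2 or 3, and Agpat2 without wildtype replicate 1 or 3. The count of 10 became 6 without wildtype replicate 2 or 3 and 4 without mutant replicate 3. In sphingolipid metabolism 3 of 35 were higher and 6 lower (25.7% called, beside 12.6% of all genes). Sphk1, the sphingosine kinase, was at 80.2, 78.9 and 97.6 CPM against 44.5, 59.5 and 53.1 CPM (−0.71). Sgpl1, which cleaves the product of that kinase (−0.52), and Mfsd2b, its exporter in red cells (−0.48), fell with it, as did Acer3 (−0.42), Ormdl3 (−0.40) and St3gal5 (−0.39). The ceramide synthases Cers5 (0.76) and Cers6 (0.57) and the galactosidase Gla (0.55) were higher. Those called whichever library was left out were Sphk1, Sgpl1, Ormdl3 and St3gal5. Without mutant replicate 3 the other 5 were lost, at adjusted p from 0.0708 for Cers5 to 0.158 for Gla. Without wildtype replicate 2 Mfsd2b, Acer3, Cers6 and Gla were lost, and without wildtype replicate 3 Mfsd2b, Cers5, Cers6 and Gla. Wildtype replicate 1 (Cers5, Cers6), mutant replicate 1 (Mfsd2b, Gla) and mutant replicate 2 (Cers5, Cers6, Gla) also decided calls. The block gave 14 calls, and the count of 9 was 5 without wildtype replicate 2 or 3 and 4 without mutant replicate 3.

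Some factors that build ribosomes rose. Of 55 tested genes of ribosome biogenesis 14 were higher and none lower (25.5%, beside 5.79% of all genes called higher), with a median of 0.18, and 51 of the 55 were above 0. Heatr1, needed for transcription of ribosomal RNA, was at 164, 161 and 171 CPM against 260.2, 227 and 258 CPM (0.59). The other 4 called in every fit that left out 1 library were the polymerase subunit Polr1a (0.50), the processing factors Rrp12 (0.60) and Utp20 (0.48) and the nuclease Nob1 (0.39). The count of 14 became 7 and 8 without wildtype replicates 2 and 3, 34 without mutant replicate 2 and 5 without mutant replicate 3, and the block gave 24. It was 24 with DESeq2, 22 with upper quartile factors and 26 with a filter at a mean CPM of 5.

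Among 49 tested proteins of the large subunit 2 were lower (4.08% called, beside 12.6% of all genes), Rpl5 and Rpl22l1, a paralog of Rpl22. Rpl22l1 fell from 66.7, 61.8 and 60.8 CPM to 29.5, 33.3 and 32.2 CPM (1.99-fold lower, −0.99), a larger difference than that of Rpl5. The list's median was 0.09. Among 33 small subunit proteins 1 was called (3.03%), Rps27l (0.34), which p53 can induce, and the median was 0.10. Both counts were 5 without mutant replicate 1 and 4 with DESeq2, and that of the small subunit was 2 with a filter at a mean CPM of 5. The mitochondrial chaperone Hspa9, one of 3 heat shock genes called higher among 19 (15.8%, near the 12.6% of all genes), rose from 1143, 1039.5 and 1062 CPM to 1454, 1274 and 1464 CPM (0.37), and the heat shock count became 1 without mutant replicate 3.

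Of 42 initiation and elongation factors 4 were higher and 1 lower, a share of 11.9% beside 12.6% of all genes, with 3 in all without wildtype replicate 1 or 3 and 1 without wildtype replicate 2 or mutant replicate 3. The helicase Eif4a2 fell (−0.36), and the helicase cofactor Eif4b (0.29) and the elongation factor Eef2 (0.29) were among those that rose, both lost without wildtype replicate 2 (adjusted p of 0.0612 and 0.119) or mutant replicate 3 (0.0642 and 0.123), and Eef2 also without wildtype replicate 1 (0.0897). Of 33 genes of the integrated stress response and amino acid supply 1 was higher and 5 lower (18.2% called). The glutamine transporter Slc1a5 (−0.58) was the one called in every fit that left out 1 library. The lowest value was that of Chac1, a glutathione-degrading enzyme, at 0.251, 0.615 and 1.7 CPM against 0, 0.161 and 0.0593 CPM (−3.54, adjusted p = 0.0286), which was called in none of those fits but that without wildtype replicate 1 (otherwise 0.0542 to 0.16). That count of 6 was 3 without wildtype replicate 1 or 3 and 1 without wildtype replicate 2 or mutant replicate 3. Of 20 genes of erythropoietin signalling 1 was higher, the kinase Cdk6 (0.29), and 2 were lower, the receptor Epor (−0.40) and the adaptor Gab1 (−0.44), a share of 15% near that of all genes, with 6 called with the block. Cdk6 was lost without wildtype replicate 1 (0.0842), wildtype replicate 3 (0.0936) or mutant replicate 1 (0.0633). Of 14 glucocorticoid and renewal genes 4 were called (28.6%): 3 were higher, among them Bmi1, a Polycomb protein of self-renewal (0.41), and 1 lower, the phosphatase Dusp1 (−0.65). Bmi1 was lost without mutant replicate 3 (0.0618), and Dusp1 in every such fit but that without wildtype replicate 1 (0.0518 to 0.0895). That count of 4 was 2 without wildtype replicate 1 or mutant replicate 2 and 1 without wildtype replicate 2 or mutant replicate 3.

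Transcripts of the mitochondrial genome were all below their wildtype level in value. The 15 tested had log2 fold changes from −0.72 to −0.18, with a median of −0.51, and 5 passed the test (33.3%, beside 12.6% of all genes), 9 with the block and 9 with voom. The oxidase subunit mt-Co1 was at 9983, 8677 and 8832 CPM in the wildtype and 5324, 6159 and 5253 CPM in the mutant libraries (−0.72). The ATP synthase subunit mt-Atp8 fell by 0.62 on the log2 scale. The count of 5 was 3 without wildtype replicate 2 or mutant replicate 1, and 8 without mutant replicate 2.

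Glycolysis genes were called in both directions. Of 29 tested glycolysis genes 6 were higher and 6 lower (41.4% called, beside 12.6% of all genes), 19 being called with the block. Pklr, the pyruvate kinase of red cells, was at 615, 580.2 and 581 CPM against 453, 389 and 416 CPM (−0.50), and the glucose transporter Slc2a1 at 74.3, 74.8 and 87.0 CPM against 45.6, 49.96 and 59.8 CPM (−0.60). The muscle-type phosphofructokinase Pfkm (−0.37) and the phosphatase Minpp1 (−0.35) fell, whereas the platelet-type phosphofructokinase Pfkp rose from 41.0, 37.98 and 44.9 CPM to 59.0, 61.3 and 66.4 CPM (0.59). Pkm, the pyruvate kinase of other tissues, rose from 474, 411 and 594 CPM to 858, 956 and 1188 CPM (1.02, adjusted p = 0.0221), but lost its call without wildtype replicate 1 (0.0739) or mutant replicate 2 (0.0724). Of 27 antioxidant genes 8 were lower and none higher (29.6%), 5 without wildtype replicate 1. Prdx2, a peroxiredoxin abundant in red cells, was at 837, 836 and 874 CPM against 645, 635 and 652 CPM (−0.40), and the microsomal transferase Mgst3 at 92.2, 95.2 and 95.2 CPM against 59.2, 60.8 and 52.1 CPM (−0.71).

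Genes of early progenitors were all above 0 in value. Of 30 tested 4 passed the test, all higher, a share of 13.3% beside 12.6% of all genes, with a median of 0.73. With the replicate block 14 were called, beside 2863 of all 14048 genes. Runx1, a founding factor of blood stem cells, was at 43.2, 42.6 and 44.4 CPM against 70.0, 66.6 and 61.4 CPM (0.61). Sox4 rose from 18.1, 16.0 and 17.1 CPM to 25.8, 30.1 and 35.1 CPM (0.83), and the stem cell factor receptor Kit (0.30) and the survival protein Bcl2 (0.84) were the others. Without wildtype replicate 2 the count was 2, and Kit (adjusted p = 0.0542) and Bcl2 (0.104) were the ones lost. Kit was also lost without wildtype replicate 1 (0.0511) or mutant replicate 3 (0.0528), and Bcl2 without wildtype replicate 3 (0.0704), mutant replicate 1 (0.0563) or mutant replicate 2 (0.0686). Of 19 megakaryocyte genes 2 were higher and 2 lower (21.1% called), with 9 called with the block: the tubulin Tubb1 fell from 23.0, 24.2 and 25.1 CPM to 12.7, 8.63 and 11.5 CPM (−1.14) and the secretory GTPase Rab27b rose from 5.7, 5.998 and 6.68 CPM to 11.2, 14.95 and 12.6 CPM (1.07). That count was 2 without wildtype replicate 2 or 3 or mutant replicate 2 or 3.

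Markers of other cell types were followed as a check of the libraries. Of 22 tested granulocyte, mast cell and eosinophil genes none was called by edgeR with all libraries, DESeq2 or voom. With the block edgeR called 9 and without mutant replicate 1 it called 1. In the fit with all libraries 1 had an unadjusted p under 0.05, and the list had a median log2 fold change of 0.56. The summed level of the list was 136, 989 and 963 CPM in the wildtype and 331, 1803 and 1290 CPM in the mutant libraries. Replicate 1 was lowest in both genotypes. The mast cell genes Fcer1a and Tpsb2 were at 0. Cpa3, another mast cell gene, had the largest difference of the list, at 0.0967, 0.846 and 0.702 CPM against 0.486, 2.18 and 2.63 CPM (1.67, adjusted p = 0.16, or 0.00318 with the block and 0.0184 without mutant replicate 1). Mpo, the myeloperoxidase of neutrophil precursors, was at 26.2, 159.6 and 138 CPM against 68.7, 493 and 259 CPM (1.34, adjusted p = 0.492, or 0.00536 with the block). Of 23 tested hepatocyte genes 6 were lower (26.1% called, beside 12.6% of all genes, median −1.38), the sum being 99.4, 61.0 and 94.0 CPM against 17.0, 40.9 and 37.1 CPM, with Apoc3 at 0. Alb, serum albumin, was at 16.3, 9.38 and 13.4 CPM against 1.05, 3.61 and 3.32 CPM (−2.29, adjusted p = 0.0108), but was not called without mutant replicate 3 (0.0512) or with the block (0.111). The hepatocyte count of 6 was 3 without wildtype replicate 1 or 3 or mutant replicate 1, and 1 without mutant replicate 3. It was 3 with voom and 2 with a filter at a mean CPM of 5. Gjb2, one of the 10 largest decreases, was the only member called whichever library was left out. Of the macrophage genes 7 of 20 could be tested, with sums from 167.5 to 185.2 CPM against 141.6 to 155.6 CPM and Cd5l, Spic and Timd4 at 0. Most of that sum was Ctsb, a lysosomal protease of many cell types, at 149, 161 and 154 CPM against 119, 123 and 119 CPM (−0.36), the only one of the 7 that was called (14.3%), with 2 called under the block. Endothelial and stromal sums were 18.62 to 20.41 CPM against 18.91 to 27.81 CPM with Pdgfra at 0. Of 6 tested 1 was called (16.7%), or 3 with the block, 2 with DESeq2 or without mutant replicate 1, and none with a filter at a mean CPM of 5. The collagen gene Col1a2 was higher (0.735, 1.13 and 0.908 CPM against 2.75, 2.82 and 4.09 CPM, 1.80). Lymphoid sums were at most 3.691 CPM, and of 4 tested genes 1 was called (25%), or none with a filter at a mean CPM of 5. The T cell gene Cd3g was lower (0.851, 0.769 and 0.685 CPM against 0.0608, 0.101 and 0 CPM, −3.78). What part these cells have in the values of the other lists was not tested.

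Among growth regulators and imprinted genes a few stood out. Peg10, an imprinted gene derived from a retrotransposon, rose from 19.6, 18.4 and 22.3 CPM to 62.0, 53.3 and 53.3 CPM (2.79-fold, log2 fold change 1.48, adjusted p = 7.34e-06). Grb10, an imprinted adaptor that restrains insulin signalling, rose (0.52) and the noncoding H19 fell (−0.92). In all, 3 of 19 imprinted genes were higher and 2 lower (26.3% called), 3 in total without mutant replicate 3 or with a filter at a mean CPM of 5. Of 15 genes around Lin28b and Hmga2 5 were higher and 1 lower (40% called), 10 with the block and 3 without wildtype replicate 2 or mutant replicate 3. The RNA-binding proteins Lin28b (0.33) and Igf2bp3 (0.44), both fetal, rose, Lin28b losing its call without wildtype replicate 2 (0.0643) or mutant replicate 3 (0.0528). Hmga2, a chromatin protein and target of the let-7 family, was at 6.42, 13.7 and 15.5 CPM against 29.6, 31.9 and 38.4 CPM (1.48, adjusted p = 0.0445). It was not called without wildtype replicate 2 or any 1 mutant library, at 0.074 to 0.131. In the interferon list 1 of 25 was higher and 3 lower (16% called, beside 12.6% of all genes), with 8 calls when mutant replicate 1 was left out and 9 under the block. The antiviral Bst2 rose (1.05), and the GTPases Irgm2 (−1.69) and Irgm1 (−0.71) fell.

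An allele is inherited with its flanking sequence, and genes next to Rpl5 on chromosome 5 were therefore listed. Of 31 tested genes within 1 Mb 6 were called (19.4%, beside 12.6% of all genes). Tmed5, a cargo receptor of the secretory pathway, rose from 50.001, 44.1 and 44.3 CPM to 84.9, 75.9 and 92.4 CPM (0.87), and Ccdc18 fell by 0.71 on the log2 scale. Idua, the lysosomal iduronidase, was at 2.51, 2.58 and 2.84 CPM against 7.45, 7.66 and 8.12 CPM (1.55), and the sulfate transporter Slc26a1 at 145, 141 and 141 CPM against 39.0, 53.1 and 43.5 CPM (−1.65). Neither pair of groups overlapped. The 2 genes overlap each other on opposite strands, and use of strand in the counting is not stated, so their separate values are uncertain. Cdc7 (−0.29) and Tgfbr3 (0.35) were each lost when wildtype replicate 2 or mutant replicate 3 was left out (adjusted p between 0.0709 and 0.12), Cdc7 also without wildtype replicate 3 (0.0834) and Tgfbr3 without wildtype replicate 1 (0.065).

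The second group of mice gave the same contrast in 3 wildtype and 3 other mutant libraries, fitted with the remaining libraries of that group. There 942 of 15024 genes were called (6.27%), 499 higher (3.32%) and 443 lower (2.95%), and 651 genes were called in both groups, all with the same sign. The group 2 count was 425 and 480 without its wildtype replicates 2 and 3, and 439 and 433 without its mutant replicates 1 and 3. Of the 1751 genes called in group 1 and tested in group 2 1723 had the same sign. Rpl5 was at −0.46 and Cdkn1a at 3.82 in group 2, the latter beside 3.80 in group 1. Heme synthesis had a median of −0.37 in both, with 5 called in group 2. Mitochondrial transcripts had a median of −0.13 there, and granulocyte, mast cell and eosinophil genes had a median of 2.56 with 11 of 18 called. The test of the interaction asks whether the change in the mutants differs between the 2 groups. No member of these 2 lists passed it after adjustment. An unadjusted p under 0.05 was found for 1 of the 15 mitochondrial transcripts and for no granulocyte, mast cell or eosinophil gene. None of the 1766 genes passed the test of the interaction after adjustment, and 79 had an unadjusted p under 0.05. Over all genes, 342 of 15954 had such a p, a share below 0.05. After adjustment 3 passed (0.0188%), or 12 with DESeq2. With 3 libraries per genotype and group the test can miss differences, so a lack of calls does not show that the groups are alike. Group 1 was polyadenylated RNA and group 2 total RNA, so the group of mice and the kind of RNA cannot be told apart in this comparison.

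**Figure D5:**
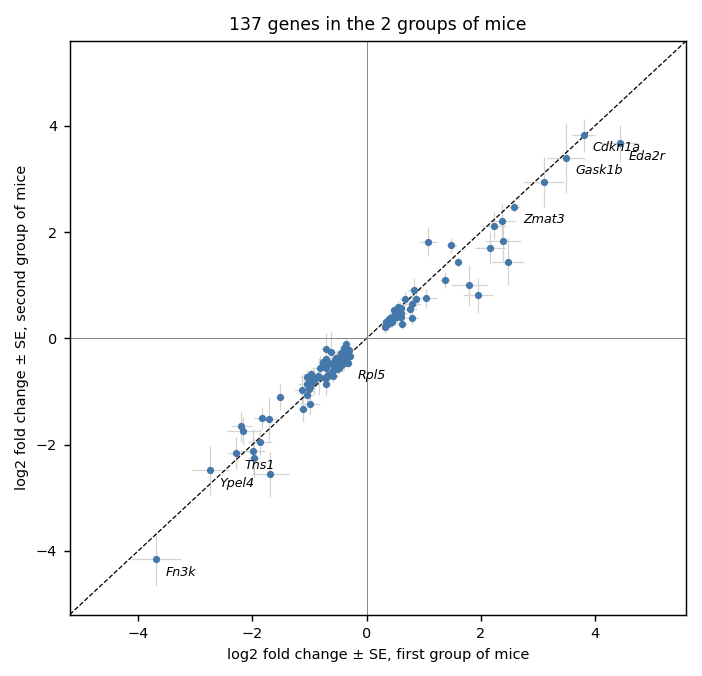
Log2 fold change of mutant over wildtype in group 1 on the horizontal axis and in group 2 on the vertical axis for 137 genes, one point per gene with standard errors: Rpl5, the largest changes and the list members that were called in group 1 whichever library was left out, with the line of equal change. All 137 have the same sign in both groups, and 97 have the smaller change in group 2, where the genes were not chosen.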

How the data were processed

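RNA from 15 libraries was measured, of which the 6 of group 1 are described and the 6 wildtype and mutant libraries of group 2 are compared. The authors deposited expected counts per gene, not normalized. Per the submitters' processing notes, cutadapt 2.3, FastQC 0.11.8, STAR 2.7.8a, RSEM 1.3.3 and MultiQC 1.7 were used with GRCm38. The annotation release and any use of strand in counting are not given in the sources used here. Values in the table were whole numbers and rounding changed 0 of them. Wrongly split reads between near-identical genes would move their separate values. Counts of between 48510828 and 58513669 per library limit the precision of genes near 1 CPM.

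Groups were taken from the labels. Genes passing filterByExpr were tested with edgeR 4.0.16 (R 4.3.3; TMM factors, robust quasi-likelihood fit, glmQLFTest) with Benjamini-Hochberg adjustment over all tested genes at 0.05. CPM values were TMM-scaled, and a standard error is the log2 fold change divided by the root of F. Alternatives were DESeq2 1.42.0, voom with quality weights in limma 3.58.1, upper quartile factors, no filter, a mean CPM of at least 5, the replicate number as a block, and each library left out; the legacy quasi-likelihood mode was added after the data were seen. The main fit held genotype only and did not pair samples by replicate number. Deviations of same-numbered libraries from their group means correlated at 0.44, 0.19 and 0.15. Those of wildtype replicate 3 and mutant replicate 2 correlated at 0.23, so these values do not settle whether the numbers pair samples. On simulated data for group 1 mutant against wildtype 39.0%, 54.5% and 72.5% of 200 genes changed by 1.5, 2 and 4-fold were recovered. False calls numbered 10, 19 and 15 among 13688, 13683 and 13684 tested genes. At each fold they made up more than 0.05 of all calls made, above the rate that the threshold sets.

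The comparison, the gene lists and the genes named were chosen with earlier results of these data known. Named were Rpl5, the 10 largest increases and decreases among genes called in all 6 fits that left out 1 library (mean CPM of at least 2, groups not overlapping, predicted genes passed over), up to 6 called genes of each list, called members of the lipid lists and called genes within 1 Mb of Rpl5, apart from some genes not reported here. Named after their values were seen were Btg2, Chac1, Mpo, Cpa3, Mdm2, Trp53, Gata1, Gata2, Alas1, Cpox, Ppox, Tmem14c, Slc4a1, Sptb, Tmod1, Tpm3, Mcm7, Pkm, Hbb-y, Hba-x, the promoter genes Pard3, Itm2a, Dnajc7, Ifitm2 and Sptbn4, and the sex-linked genes.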

Additional observations from a re-analysis of the deposited data

Results flagged for a closer look

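The change in the mutants differed between the 2 groups of mice for 3 genes in the test of the interaction (group 2 minus group 1, edgeR quasi-likelihood test). Gm8730 differed by -1.11 on the log2 scale (adjusted p = 0.00343), Gm9625 by -1.16 (adjusted p = 0.00343) and Gm6278 by -1.11 (adjusted p = 0.0311). All 3 are pseudogenes of Rplp0, and reads can be divided between them and that gene by estimation, so the values are uncertain. In group 1 alone Gm8730 was at 0.16 (adjusted p = 0.163), Gm9625 at 0.21 (0.102), Gm6278 at 0.22 (0.317) and Rplp0 itself at 0.13 (0.189). Groups of 3 libraries were too small for a test of single outlying libraries.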

How the results depend on the processing

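In group 1 the count of called genes lay between 1643 and 2275 under DESeq2, voom, upper quartile factors, no filter, a mean CPM of at least 5 and the legacy mode, against 1766. With the replicate block it was 2863, with 1470 higher and 1393 lower, and 1763 of the 1766 genes were among them. Leaving out 1 library gave between 753 and 1729 calls, with 368 to 852 higher and 385 to 877 lower. In group 2 leaving out 1 library gave between 425 and 1323 calls against 942. The interaction gave 3 calls, 12 with DESeq2, 5 with the replicate block and 2 to 3 with 1 library left out. The cause was not tested. Among 267 named and list genes none changed direction. Without mutant replicate 3, 105 were no longer called, and without wildtype replicates 1, 2 and 3, 61, 94 and 60. The block ended the calls of Alb, Slc25a37 and mt-Nd4l. Fits that leave 2 libraries in an arm have fewer samples, and at these depths genes near 1 CPM are measured with few reads.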
